A study of Mus musculus with 3 samples.

Results

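The nuclei described here are 234 single brain nuclei with high counts of Zfhx3, Htr2c and Glra1, among 9027 nuclei that passed the limits of at least 1000 detected genes and at most 5% mitochondrial UMIs, out of 17517 barcodes in all. A UMI (unique molecular identifier) count stands for 1 captured RNA molecule, and a level is given in CPM, the usual scaling of a gene's UMIs by the total UMIs of the nucleus or of the summed nuclei. A nucleus was a member when it held at least 500 CPM of Zfhx3, at least 500 CPM of Htr2c and at least 150 CPM of Glra1, no UMI of Angpt1, under 300 CPM of Tox and under 150 CPM of Ttc6, Chst9 and Rreb1 together. The members were set against 2830 comparison nuclei, the other passing nuclei with at least 200 CPM of Meis1 and Meis2 together and under 300 CPM of Tox. All samples came from 1 group, uninjured mice of the strain C57BL/6, as 3 libraries that the labels call biological replicates. Tissue with fluorescent neurons, labelled backwards from axons in the lumbar spinal cord, was cut from brain slices, and the nuclei were sorted by flow cytometry before 10x Genomics sequencing. The labels used here give no age, no labelling agent and no number of animals per library. With a single group, no treatment, time or genotype is compared, and each comparison is between sets of nuclei within the same 3 libraries.

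Neurons of the hindbrain reticular formation send axons to the lumbar cord and carry commands for locomotion, posture and autonomic control. Glra1 encodes the adult alpha subunit of the glycine receptor, a chloride channel through which glycinergic neurons of the brainstem and cord inhibit their targets. Htr2c encodes the serotonin 2C receptor, which couples to Gq and phospholipase C, and serotonin from the raphe nuclei is known to raise the excitability of brainstem and spinal neurons. Zfhx3 encodes a large zinc finger homeodomain protein that in the cord marks early-born, long-range projection neurons. Nxph1 encodes neurexophilin 1, a secreted ligand of alpha-neurexins. Lhx4 is a LIM homeodomain factor of motor neurons and of the V2a class of excitatory interneurons, which in the hindbrain includes reticulospinal cells.

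The 3 libraries contributed 94, 55 and 85 members (replicates 1, 2 and 3). Members made up 3.51% of the passing nuclei of replicate 1 (exact 95% binomial interval 2.84 to 4.28%), 1.99% of replicate 2 (1.50 to 2.58%) and 2.37% of replicate 3 (1.90 to 2.93%), a mean of 2.62% ± 0.791 (SD, n = 3). The interval of replicate 1 lay above that of replicate 2 and overlapped that of replicate 3. Of members and comparison nuclei together, members made up 8.91%, 6.63% and 7.21%. No member barcode occurred as a passing barcode of another library, and no member was called a doublet by Scrublet, which called 22, 36 and 52 passing nuclei.

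The libraries held 27435221, 74287112 and 60490064 UMIs over 32285 genes. The median member held 6556.5, 17572 and 12644 UMIs in replicates 1, 2 and 3, against 7102, 14680 and 10503.5 UMIs in the median comparison nucleus, so members were shallower than comparison nuclei in replicate 1 and deeper in the other two. Summed over nuclei, the members gave 709725, 1069723 and 1092204 UMIs and the comparison nuclei between 7820598 and 13542069. Replicate 1 was the shallowest per nucleus, and there 32 of 94 members met the Glra1 limit with a single UMI, against 2 of 55 in replicate 2 and 12 of 85 in replicate 3. Membership therefore rested on 1 molecule of Glra1 in 46 of 234 members.

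The genes of the rule are given as descriptions only, since they chose the members. Zfhx3 (mm10 chromosome 8, 107942644 to 108961630) stood at 1133, 863 and 1047 CPM in the members of replicates 1, 2 and 3 and at 427, 307 and 429 CPM in the comparison nuclei. Htr2c (chromosome X, 146962513 to 147197277) stood at 1474, 1101 and 1373 CPM against 493, 402 and 550 CPM. Glra1 (chromosome 11, 55514238 to 55608198) stood at 335, 272 and 281 CPM against 191, 187 and 172 CPM. All 3 genes were therefore well represented in the comparison nuclei too, and the rule takes the nuclei that are high in all of them at once. Levels ran on across each limit without a gap. The lowest members held 500.5 CPM of Zfhx3, 505.7 CPM of Htr2c and 151 CPM of Glra1, and the highest nuclei that failed that condition alone held 493, 490 and 149.9 CPM. Failing only the Zfhx3 limit were 340 nuclei, failing only Htr2c were 421 and failing only Glra1 were 186. Of those last groups, 226 held no Htr2c UMI and 101 held no Glra1 UMI. Angpt1 alone kept out 28 nuclei, Tox alone 29 and the sum of Ttc6, Chst9 and Rreb1 alone 13.

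**Figure D1:**
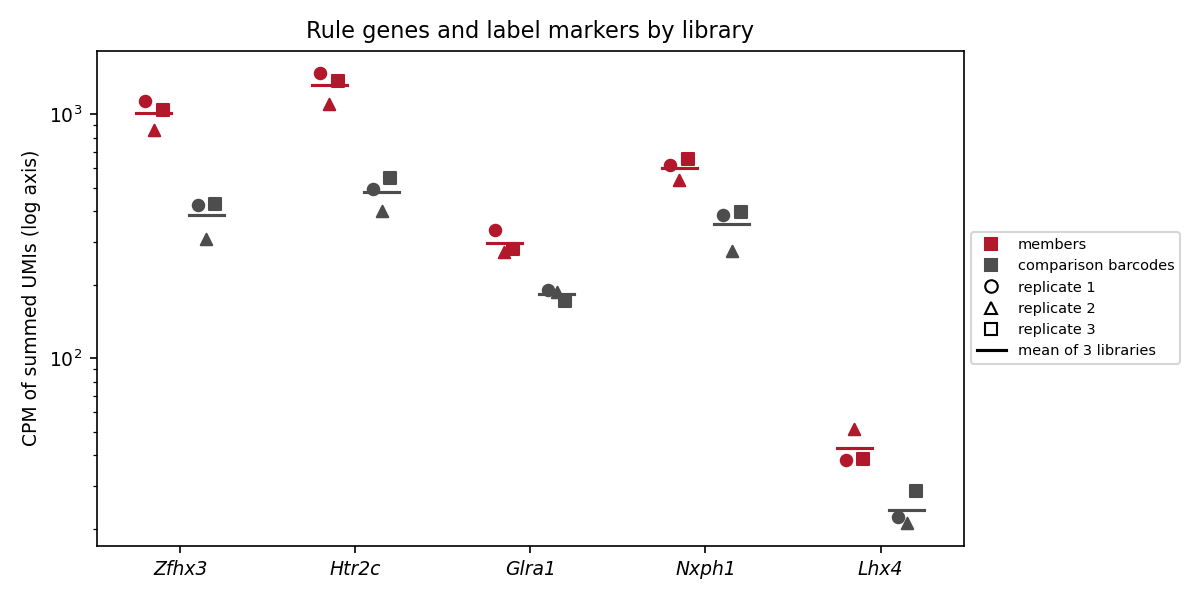
Level of the 3 genes that chose the members and of the label markers Nxph1 and Lhx4, in CPM of summed UMIs on a log axis, with 1 symbol per library for members (red) and comparison nuclei (grey) and a line at the mean of 3 libraries. For Zfhx3, Htr2c and Glra1 the gap is set by the rule. Nxph1 and Lhx4 were not part of the rule, and the 3 member values of each lie above the 3 comparison values.

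Nxph1 and Lhx4 name the group together with the rule genes and are likewise given without a test. Nxph1 (chromosome 6, 8948431 to 9249032) stood at 620, 537 and 656 CPM in the members and at 388, 275 and 399 CPM in the comparison nuclei, without overlap. At least 1 Nxph1 UMI was seen in 205 of 234 members. After each nucleus was thinned to 5000 UMIs, which 211 members reached, Nxph1 was seen in 78.0% ± 3.98 (SD over 3 libraries) of members, 52.9% of comparison nuclei and 3.74% of the nuclei with at least 300 CPM of Tox, a set used as background, in which 76.8% of nuclei held the cortical transporter gene Slc17a7. Unthinned, the shares were 88.6%, 59.4% and 9.26%. Lhx4 (chromosome 1, 155698031 to 155751684) stood at 38.0, 51.4 and 38.5 CPM against 22.4, 21.05 and 28.4 CPM, again without overlap. Lhx4 was far from universal: 81 of 234 members had a UMI, and thinned shares were 17.3% of members, 10.3% of comparison nuclei and 0.772% of Tox nuclei (38.5%, 20.5% and 2.36% unthinned). Within the clusters of a map built without these genes, described below, the order was not kept in every cluster: Nxph1 was at 742 CPM in members and 808 CPM in comparison nuclei of cluster 6 and at 388 and 420 CPM in those of cluster 11, and Lhx4 was at 26.6 and 54.9 CPM in those of cluster 7.

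The conditions for members do not ask for a hindbrain gene, so the label was checked on genes outside those conditions. The Meis limit of the comparison nuclei (Meis1 and Meis2 are homeodomain factors used here to gate hindbrain nuclei) was met by 189 of 234 members. The other 45 lay under it, and 16 of those held no Meis UMI. Hox genes, which pattern the caudal hindbrain and cord, were low: Hoxd3 stood at 19.6 ± 6.23 CPM, Hoxb3 at 13.8 ± 4.17 CPM and Hoxc4 at 11.5 ± 0.608 CPM (SD, n = 3). Hoxc5, Hoxc6, Hoxb8 and Hoxd8, which lie further along their clusters, had no UMI in the members, which allows up to 1.04 CPM at 3 counts over the 3 libraries. The Meis limit was thus met by most members and not by all. Nor does it single out hindbrain nuclei. Of the comparison nuclei, which all meet it, 343 (12.1%) lay in 8 clusters of the map described below with at least 300 CPM of Tox. Whether most members are hindbrain nuclei was therefore not settled, and the group is called here by its rule genes.

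Markers of other cell types were examined in the same sums. The members held no UMI of the V0 markers Evx1 and Evx2, of the V3 and paraventricular marker Sim1, of the motor neuron genes Isl1, Mnx1 and Slc5a7, of the serotonergic factor Fev, or of the astrocyte genes Aqp4 and Gja1. These are single genes of their lists, and others were present: the 4 serotonergic markers summed to 8.41 to 30.2 CPM in the members and 20.97 to 41.2 CPM in the comparison nuclei, with Slc18a2 at 32 member UMIs, Tph2 at 12 and Slc6a4 at 4. The 4 paraventricular markers summed to 8.41 to 17.4 CPM against 9.16 to 18.8 CPM, of which Oxt held 33 member UMIs. The genes named above without a member UMI were also near 0 in the comparison nuclei, with means from 0 (Mnx1) to 0.961 CPM (Sim1). Such levels are under the 1.04 CPM that 3 counts allow in the members, so these zeros do not set the members apart from the comparison nuclei. The summed level of 6 corticospinal markers was 73.3 to 139 CPM in the members and 166 to 278 CPM in the comparison nuclei, with 5 of the 6 lower in all 3 libraries, and Tox among them is a gene of the rule. The 4 microglial markers summed to 59.2 to 77.8 CPM against 55.6 to 87.6 CPM, with P2ry12 at 60.9 ± 7.65 and 53.3 ± 16.9 CPM and Cx3cr1 at 8.95 ± 4.24 and 14.4 ± 1.09 CPM. Hcrt, the peptide of lateral hypothalamic orexin neurons, was at 60.6, 101 and 19.2 CPM in the members and at 73.5, 124 and 38.1 CPM in the comparison nuclei. Its level followed the library in both sets. The part of these transcripts in the results below was not tested.

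Transcripts of the excitatory pathway predominated among the members. Slc17a6, which encodes the vesicular glutamate transporter VGLUT2, stood at 128, 115 and 124 CPM in the members and at 90.3, 89.6 and 113 CPM in the comparison nuclei. The groups did not overlap, but the difference did not pass the test (log2 fold change 0.35, edgeR adjusted p = 0.0628). Thinned to 5000 UMIs, Slc17a6 was seen in 41.6% ± 3.69 of members, 35.8% of comparison nuclei and 3.86% of Tox nuclei (61.3%, 56.0% and 11.6% unthinned). Slc17a7, which encodes VGLUT1 of cortical excitatory neurons, was lower in the members, at 5.64, 26.2 and 11.9 CPM against 22.6, 49.3 and 24.2 CPM. Each library showed that direction, although the sets overlapped between libraries (log2 fold change -1.07, edgeR adjusted p = 0.00453). The Slc17a7 change was -0.93 without replicate 1, under the 2-fold limit, and -0.56 against comparison nuclei with a Slc17a6 UMI (adjusted p = 0.340). Of 6 tested transmitter genes, Slc17a7 was the only 1 called, where 1.77% of all tested genes were called in the comparison given below.

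A small set of members carried inhibitory transcripts in place of Slc17a6. At least 1 UMI of Slc32a1, Gad1, Gad2 or Slc6a5, the genes of GABA synthesis and of GABA and glycine packaging and uptake, was seen in 23 of 234 members, and at least 5 UMIs in 10. Among the 2830 comparison nuclei these counts were 178 and 30. The 10 members came from replicates 1 (2 nuclei) and 3 (8 nuclei), with 0 in replicate 2. None of the 10 had a Slc17a6 UMI. They held 277 CPM of Gad2, against 4.02 CPM in the other 224 members, and 131 CPM of Slc6a5, the glycine transporter GlyT2, against 1.83 CPM. Gata3, a factor of inhibitory V2b interneurons, was at 65.7 against 2.56 CPM. Nxph1 was at 1511 against 557 CPM and Zfhx4 at 474 against 179 CPM, while Lhx3 and Lhx4 had 0 UMIs, against 38.0 and 45.3 CPM in the other members. These 10 nuclei were chosen by their inhibitory UMIs, so the values describe them and are not tested. Slc17a6 and inhibitory UMIs met in the same nucleus in 4 members, and 78 members had neither.

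**Figure D2:**
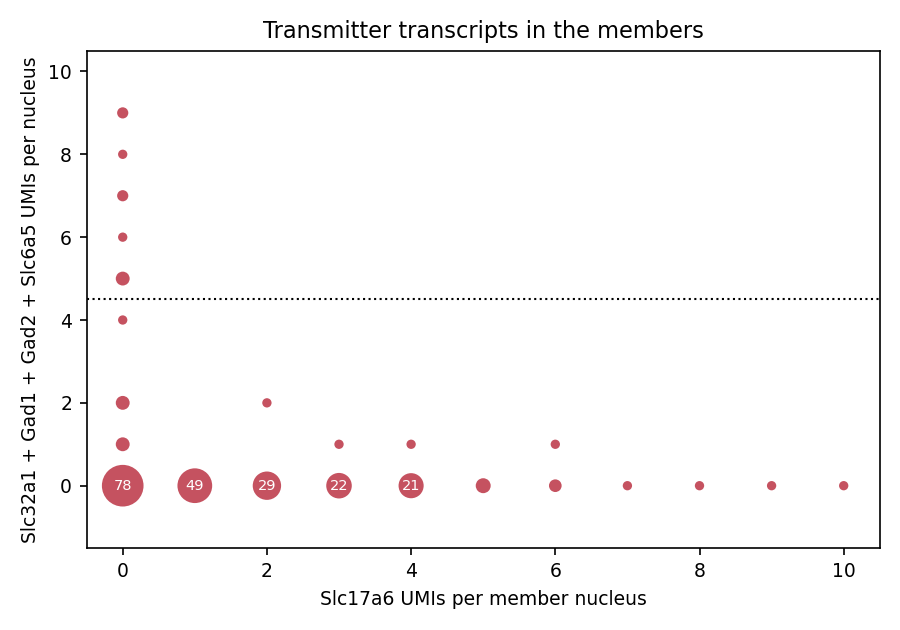
UMIs of Slc17a6 (horizontal axis) against the summed UMIs of Slc32a1, Gad1, Gad2 and Slc6a5 (vertical axis) in each of 234 members, with the area of a point growing with the number of nuclei at that position and the number printed where it is at least 10. Above the dotted line lie the 10 members with at least 5 inhibitory UMIs, all at 0 Slc17a6 UMIs, and 78 members lie at the origin.

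To see whether the members lay together by other genes, all passing nuclei were clustered without the 12 rule and label genes, which gave 23 clusters. Members occurred in 10 of them. Cluster 3 held 98 members (41.9%), cluster 6 held 68 (29.1%), cluster 7 held 25 (10.7%) and cluster 11 held 22 (9.40%). Together these 4 clusters held 91.0% of members and 45.3% of comparison nuclei. In none of the 4 were members the majority: they made up 13.3% of the 739 nuclei of cluster 3, 14.8% of cluster 6, 5.995% of cluster 7 and 6.69% of cluster 11. Of the 641 other nuclei of cluster 3, 260 failed a single condition of the rule, 238 failed 2 and 143 failed 3 or more. Among the 20 nearest neighbours of a member, 19.7% on average were members, against 6.02% for a comparison nucleus and 2.59% in the series, and 23 members had no member neighbour. The members were thus gathered in a few neighbourhoods of the map and shared each of them with more numerous nuclei outside the rule.

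**Figure D3:**
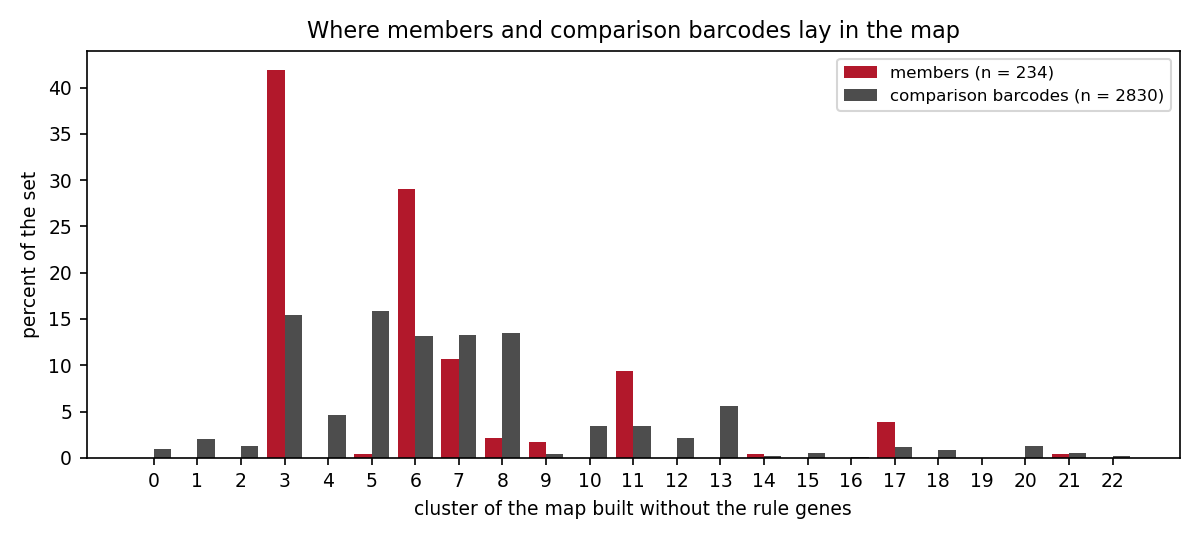
Share of the 234 members (red) and of the 2830 comparison nuclei (grey) in each cluster of a map built without the rule and label genes, as bars from 0 in percent. Clusters 3, 6, 7 and 11 hold 91.0% of members and 45.3% of comparison nuclei, while clusters 5 and 8 hold 15.8% and 13.5% of comparison nuclei and 6 members together.

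The members differed among themselves along these clusters. The values are descriptions: Htr2c chose the members, and the other genes named here were open to the clustering. Members of cluster 6 held 1038 CPM of Adarb2, a brain protein of the RNA-editing deaminase family, against 23.6 CPM in those of cluster 3, 53.3 CPM in those of cluster 7 and 3.81 CPM in those of cluster 11. Reln, which encodes the secreted protein reelin, was at 873 CPM in members of cluster 6 and 923 CPM in those of cluster 7, at 125 CPM in those of cluster 3 and at 0 in those of cluster 11. Pard3b, a polarity gene, was at 382 CPM in members of cluster 7 and between 7.62 and 61.1 CPM in the other 3. Lhx3 ran from 19.0 CPM in members of cluster 11 to 48.8 CPM in those of cluster 7. The 10 members with at least 5 inhibitory UMIs all lay in cluster 3. A finer clustering (Leiden resolution 2) had a cluster of 53 nuclei with 235 CPM of Gad2, 117 CPM of Slc6a5 and 5.19 CPM of Slc17a6. It held 17 members, 32.1% of its nuclei, so more members than those 10 may be inhibitory. Htr2c set members apart from their own cluster unevenly: 1269 against 150 CPM in cluster 7 and 1206 against 986 CPM in cluster 6.

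Members and comparison nuclei were then compared across all genes, on UMIs summed per library and set, with the library as a block. A gene was called at an edgeR adjusted p under 0.05 and at least a 2-fold change (1 on the log2 scale). Among 14618 tested genes, 27 were higher in the members (0.185% of tested genes) and 232 were lower (1.59%), and 254 of these 259 (1.77%) had the same direction in 3 of 3 libraries. The higher genes included homeodomain factors, and the lower ones included nuclear factor I genes and genes that in the comparison nuclei were carried by clusters with few or no members. The calls depended on how the comparison set was made up. In a comparison chosen after the data were seen, members were set against 3 comparison nuclei each, of their own library and cluster. Members whose cluster held too few comparison nuclei in their library were left out. This kept 217 of 234 members (88, 44 and 85 in replicates 1, 2 and 3), with 651 comparison nuclei and 11438 genes. In that comparison 2 genes were higher and 3 lower. In another alternative every nucleus was thinned to 5000 UMIs and the rule applied again, and 6 of the 25 higher and 104 of the 182 lower genes it could test were still called. Bulk sums cannot tell fewer nuclei of a kind from less RNA per nucleus. The share of all tested genes whose library values did not overlap between the sets is not given here. Statements on overlap are therefore descriptions of single genes and no support for a call.

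The transcription factor gene Zfhx4 (chromosome 3, 5218526 to 5415857), the close relative of Zfhx3, stood at 168, 167 and 234 CPM in the members and at 86.9, 57.3 and 93.6 CPM in the comparison nuclei. The lowest member value was above the highest comparison value, and the gene was higher with a log2 fold change of 1.32 (SE 0.10, edgeR adjusted p = 2.41e-07). A UMI was seen in 165 members. After thinning the change was 0.95 (adjusted p = 3.23e-05), under the fold limit.

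Of the V2a factors, 2 of 4 tested were higher and none lower (0.185% and 1.59% over all tested genes). Their median log2 fold change was 0.86, against -0.00424 over all tested genes. Lhx3 (chromosome 2, 26200212 to 26208289), the LIM factor that acts with Lhx4 in V2 neurons and motor neurons, was at 42.3, 38.3 and 30.2 CPM against 17.5, 15.9 and 18.5 CPM (log2 fold change 1.11, SE 0.19, edgeR adjusted p = 0.000906). It was under the fold limit without replicate 2 (0.99), against comparison nuclei with a Slc17a6 UMI (0.99) and after thinning (0.91, adjusted p = 0.134). Shox2 (chromosome 3, 66971727 to 66981771), a factor of excitatory rhythm-generating interneurons, was at 26.8, 40.2 and 44.9 CPM against 13.9, 18.5 and 21.7 CPM (1.08, SE 0.17, adjusted p = 0.000468). Against comparison nuclei with a Slc17a6 UMI it was 0.93. Neither gene's values overlapped between the sets. Sox14 did not pass (-0.26, adjusted p = 0.858). A UMI of Lhx3 was seen in 69 members and of Shox2 in 74, and thinned shares were 15.3% of members against 7.69% of comparison nuclei for Lhx3, and 19.1% against 8.01% for Shox2. Against nuclei of the same clusters, the changes were 0.31 for Lhx3 and 0.35 for Shox2 (adjusted p = 0.912 and 0.887).

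Factors linked to neuronal birth order gave 1 higher and 3 lower genes among 11 tested (0.185% and 1.59% over all tested genes). Their median log2 fold change was -0.22. Beside the higher Zfhx4, the 3 tested nuclear factor I genes, which are expressed in later-born, locally projecting neurons of the cord, were lower. Nfib stood at 19.7, 43.9 and 25.6 CPM in the members and at 142, 139 and 77.4 CPM in the comparison nuclei (-1.89, SE 0.17, edgeR adjusted p = 7.85e-07). Nfia was at 60.6, 64.5 and 57.7 CPM against 151, 131 and 114 CPM (-1.06, SE 0.11, adjusted p = 6.87e-06), and at -0.98 without replicate 1. Nfix was at 1.41, 8.41 and 2.75 CPM against 13.7, 19.9 and 8.88 CPM (-1.64, SE 0.37, adjusted p = 0.0115). None of the 3 overlapped between the sets. Against comparison nuclei with a Slc17a6 UMI the changes were smaller, at -1.02 for Nfib, -0.74 for Nfia and -0.96 for Nfix, and only Nfib was still called (adjusted p = 0.00396, and 0.426 for Nfix). In the comparison nuclei, 24.9% of Nfib UMIs came from cluster 1, which held 2.05% of these nuclei and no member. Against nuclei of the same clusters Nfib was at 0.09 and Nfia at -0.30 (adjusted p = 0.988 and 0.83). Onecut1, at 49.0 ± 4.35 against 33.4 ± 7.13 CPM, did not pass (0.55, adjusted p = 0.0740), and Pou2f2 passed the adjusted p alone (0.59, adjusted p = 0.0458).

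**Figure D4:**
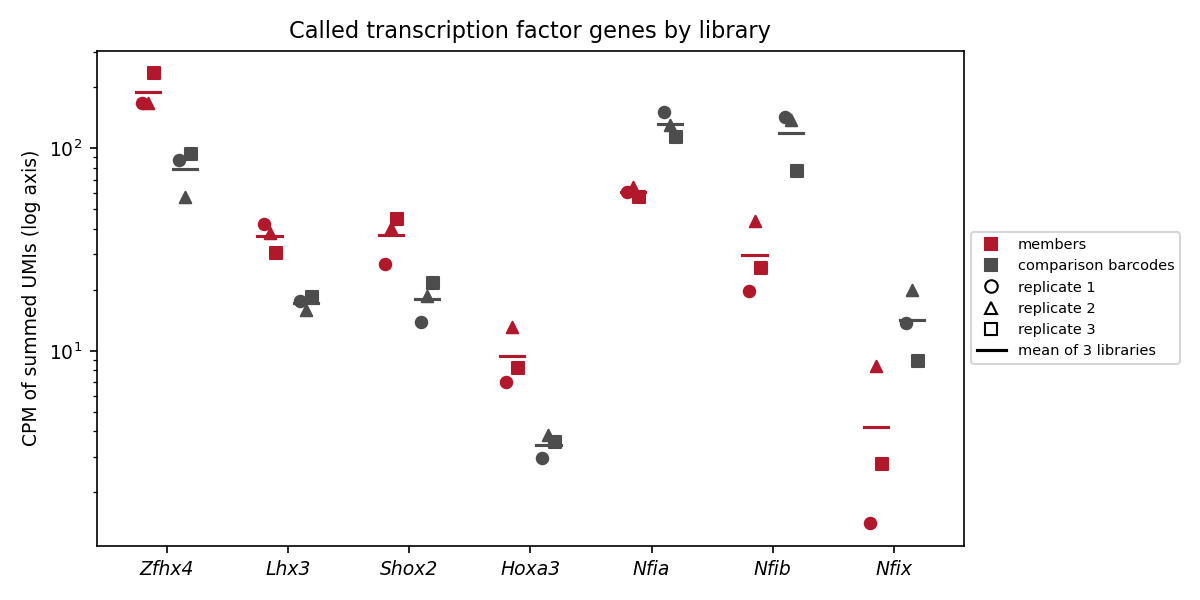
Level of 7 called transcription factor genes in CPM of summed UMIs on a log axis, with 1 symbol per library for members (red) and comparison nuclei (grey) and a line at the mean of 3 libraries. Zfhx4, Lhx3, Shox2 and Hoxa3 are higher and Nfia, Nfib and Nfix lower in the members, and for each gene the 3 member values do not overlap the 3 comparison values.

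Of 6 Hox genes that could be tested, 1 was higher and none lower (0.185% and 1.59% over all tested genes). All 6 changes were above 0 (0.25 to 1.49). The called gene, Hoxa3, was at 7.04, 13.1 and 8.24 CPM against 2.94, 3.84 and 3.55 CPM (1.49, SE 0.39, edgeR adjusted p = 0.0313), from 28 UMIs in 25 members. It was no longer called without replicate 2 (1.26, adjusted p = 0.305), without replicate 3 (1.60, adjusted p = 0.0675) or after thinning (0.74, adjusted p = 0.750). The Hoxa3 annotation overlaps Hoxa4, Hoxa5 and antisense genes, and Zfhx4, Lhx3 and Shox2 also overlap a gene on the opposite strand. Whether counting used strand is not given in the sources used here, so reads of such neighbours cannot be told apart.

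Other higher genes varied in how many nuclei carried them. Lhfp, a tetraspan membrane gene, was at 49.3, 49.5 and 43.0 CPM against 23.7, 22.1 and 21.1 CPM (1.12, SE 0.16, edgeR adjusted p = 0.000119). Ptprz1, a receptor phosphatase that binds chondroitin sulfate proteoglycans, was at 67.6, 86.0 and 86.1 CPM against 42.5, 33.9 and 45.5 CPM (1.04, adjusted p = 8.59e-05), and at 0.85 without replicate 2. Ankfn1 was at 124, 65.4 and 140 CPM against 49.2, 43.8 and 58.1 CPM (1.12, adjusted p = 3.30e-05), at 0.98 without replicate 3, and was concentrated in cluster 6, where members held 255 CPM. The antisense RNA Ctcflos, which overlaps Ctcfl, was at 33.8, 26.2 and 10.99 CPM against 7.03, 5.32 and 7.41 CPM (1.81, SE 0.32, adjusted p = 0.00156), in 35 members. None of these 4 genes overlapped between the sets. Lhfp and Ptprz1 were not called after thinning (0.64 and 0.56, adjusted p = 0.248 and 0.169), nor were Lhfp and Ankfn1 when the exclusions of the rule were applied to both sets (0.92 and 0.97).

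For 5 further called genes a single nucleus held much of the signal. It held 54.8% of the member UMIs of Irgm1, 47.5% of Ash2l, 47.4% of Kcnh8, 34.3% of Egflam and 34.0% of Cpa6. Without that nucleus the pooled member level was 11.6 CPM for Irgm1, against 13.3 CPM in the comparison nuclei, and 37.1 CPM for Ash2l, against 32.3 CPM. It was 10.6 against 6.35 CPM for Kcnh8, 15.6 against 8.83 CPM for Egflam and 58.7 against 25.7 CPM for Cpa6. The library of that nucleus decided 4 of these calls: without replicate 2 the change was 0.26 for Ash2l, 0.77 for Kcnh8 and 0.71 for Egflam, and without replicate 3 it was 0.49 for Cpa6 (edgeR adjusted p from 0.366 to 0.744). Irgm1 stayed called without replicate 2, the library of its nucleus (1.29, edgeR adjusted p = 0.0357), and went to 0.88 without replicate 3 (adjusted p = 0.0565). In replicates 1 and 3 Irgm1 was at 18.3 and 18.3 CPM in the members, against 8.57 and 7.02 CPM in the comparison nuclei. The comparison level was highest in replicate 2, at 22.1 CPM, and only 10 members in all had an Irgm1 UMI. Cpa6, a carboxypeptidase, was at 42.3, 26.2 and 179 CPM in the members, so its mean rested on replicate 3.

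Among the lower genes, the 12 with the largest changes were carried by clusters where members were rare. Clusters 5, 4, 10 and 8 each led the comparison UMIs of some of them, and these 4 clusters held 1, 0, 0 and 5 members. Prdm6, a transcriptional repressor, had 1 UMI in the members, while the comparison nuclei held 17.6, 28.0 and 21.4 CPM, 66.4 times as much (95% counting interval 11.9 to 2628). Of its comparison UMIs, 90.9% came from cluster 5. The neuropeptide gene Spx (spexin) was at 4.23, 5.61 and 3.66 CPM against 20.1, 49.8 and 40.1 CPM (-3.06, SE 0.28, edgeR adjusted p = 1.04e-06), with 87.5% of comparison UMIs in cluster 5. Col25a1, a membrane collagen of neurons, was at 8.45, 11.2 and 10.1 CPM against 80.7, 67.2 and 85.7 CPM (-2.91, SE 0.19, adjusted p = 3.20e-08), with 72.8% in cluster 8. Its change was -2.16 when the exclusions of the rule, Angpt1 among them, were applied to both sets, and -0.92 after thinning, where it was not called (adjusted p = 0.0570). The members thus held little of the genes that these clusters carried. Not all of the clusters are shown to be near the members. Cluster 4 held 309 CPM of Tox and was 1 of 8 clusters with at least 300 CPM. Those 8 clusters held 343 comparison nuclei (12.1%) and 0 members. The part of these nuclei in the lower genes was not tested.

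The remaining 9 of the 12 followed the same clusters. Kcnip3, a calcium-binding partner of Kv4 channels, changed by -3.23 (39.4 ± 11.5 CPM in the comparison nuclei, 3.88 ± 3.93 CPM in the members), and 31.4% of its comparison UMIs lay in cluster 5. Cluster 4 led for the activating factor gene Creb5 (-3.90), Arhgap15 (-3.84) and the lipid exporter gene Abca1 (-3.45), and cluster 8 for the oxidase gene Nox4 (-3.25). Cluster 10 led for the histone gene Hist1h2bm (-3.62), Slc44a4 (-3.61), and the immediate response genes Ier5 (-2.71) and Gadd45b (-2.69). Cluster 10 had a median of 3952.5 UMIs per nucleus, and 219 of its 346 nuclei came from replicate 1. Slc44a4 was at 72.9 CPM in the comparison nuclei of replicate 1 and at 5.10 and 6.25 CPM in the others, and it was no longer called without replicate 1 (-2.56, edgeR adjusted p = 0.0529). After thinning, Abca1 was not called (-1.65, adjusted p = 0.0559). Against comparison nuclei with a Slc17a6 UMI, Ier5 and Gadd45b were not called (-1.33 and -1.30, adjusted p = 0.205 and 0.196). The part of this shallow cluster in the calls it led was not tested. Among clusters with at least 20 comparison nuclei, 214 of the 232 lower genes (92.2%) had their highest comparison level in a cluster without members, against 80.2% of all tested genes. Only 1 of the 232 (0.431%) was highest in cluster 3, 6, 7 or 11, against 10.2% of all tested genes. Genes chosen as lower in the members tend by that choice to peak in clusters with few members, so these shares are descriptions and no test.

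For inhibitory receptors no gene was called among 17 tested members of the glycine and GABA-A receptor list (Glra1 itself is a rule gene). At an unadjusted p under 0.05, 2 were higher and 4 lower, where 2045 of all 14618 tested genes passed in either direction. The median log2 fold change of the list was -0.0157. Glra2, the embryonic alpha subunit, was at 16.9, 20.6 and 24.7 CPM in the members and at 37.2, 38.5 and 47.2 CPM in the comparison nuclei. The sets did not overlap, and the change of -0.94 (SE 0.18, edgeR adjusted p = 0.00287) stayed just under the fold limit. Glrb, the beta subunit that pairs with Glra1 and anchors to gephyrin, was at 172 ± 4.54 against 171 ± 9.77 CPM, and gephyrin (Gphn) itself at 755 ± 70.0 against 703 ± 67.5 CPM. Neither passed. Gabrb1 passed the adjusted p with a small change, at 1075 ± 104 against 873 ± 95.8 CPM (0.33, adjusted p = 0.00286), and so did Gabrg3 in the other direction (-0.27, adjusted p = 0.0313).

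Among 8 tested serotonin receptors other than Htr2c, none was called, with 1 higher and 2 lower at an unadjusted p under 0.05. Htr7, which couples to Gs, came nearest, at 62.0, 59.8 and 59.5 CPM in the members and 46.4, 42.8 and 46.5 CPM in the comparison nuclei. Its sets did not overlap, but the adjusted p missed the threshold (0.45, edgeR adjusted p = 0.0663). Htr1f was at 174 ± 34.8 against 203 ± 30.1 CPM and Htr4 at 62.4 ± 9.57 against 56.0 ± 1.97 CPM. Htr2a, the nearest relative of Htr2c in coupling, was low in both sets, at 3.56 ± 1.47 and 6.89 ± 1.21 CPM. Of 14 tested Gq signalling genes 1 was lower, where 1.59% of all tested genes were lower. Itpr1, the IP3 receptor that releases calcium downstream of Htr2c, was at 33.8, 57.0 and 36.6 CPM against 130, 116 and 87.2 CPM (-1.30, SE 0.14, adjusted p = 1.06e-05). The change was -0.77 against comparison nuclei with a Slc17a6 UMI and -0.09 against nuclei of the same clusters (adjusted p = 0.00595 and 0.985). Plcb1 passed the adjusted p alone (-0.26, adjusted p = 0.0343), and so did Rgs7 (0.25, adjusted p = 0.0480).

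Glutamate receptors gave no call among 18 ionotropic and 6 metabotropic genes tested, with 3 and 4 higher and 2 and 1 lower at an unadjusted p under 0.05. The kainate receptor subunit Grik1 came nearest, at 710, 869 and 958 CPM in the members and at 459, 380 and 489 CPM in the comparison nuclei. No value overlapped, and the change of 0.97 (SE 0.08, edgeR adjusted p = 6.17e-07) lay just under 2-fold. Grik2 was at 1657 ± 182 against 1170 ± 207 CPM (0.54, adjusted p = 2.31e-05), and the NMDA receptor subunit Grin2a at 237 ± 8.94 against 343 ± 58.1 CPM (-0.49, adjusted p = 0.00131). Of the metabotropic receptors, Grm7 (0.53) and Grm3 (0.50) were among those that passed the adjusted p as higher, and Grm5 (-0.54) passed as lower. Grm5 stood at 764 ± 90.7 against 1129 ± 98.2 CPM.

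Receptors for other modulators gave few calls. None of 10 adrenergic, dopamine and acetylcholine receptors was called (3 higher and 1 lower at an unadjusted p under 0.05). The muscarinic receptors passed the adjusted p in opposite directions: Chrm2, coupled to Gi, was at 331 ± 75.2 against 230 ± 27.8 CPM (0.54, edgeR adjusted p = 0.000337), and Chrm3, coupled to Gq, at 152 ± 17.9 against 282 ± 43.6 CPM (-0.84, adjusted p = 3.72e-06). Adra1a, an alpha-1 adrenergic receptor, was at 77.0 ± 10.5 against 49.97 ± 6.24 CPM (0.64, adjusted p = 0.0108). Of 23 neuropeptide receptors, 0 were higher and 3 lower (0.185% and 1.59% over all tested genes), all rare in the members. The calcitonin receptor Calcr had 3 UMIs in the members and the neuropeptide S receptor Npsr1 had 1, which put the comparison level at 17.3 times (counting interval 5.90 to 84.2) and 19.9 times (3.54 to 790) theirs. The natriuretic peptide receptor Npr3 changed by -2.29 (adjusted p = 0.00499). Of 10 neuropeptides, Crh alone was called, at 1.41, 2.80 and 2.75 CPM against 4.99, 11.96 and 14.4 CPM (-2.15, adjusted p = 0.00538), with 79.1% of comparison UMIs in cluster 5, and its call was lost without replicate 3 (-2.002, adjusted p = 0.0725).

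Few ion channel genes were called. Among 36 tested potassium channel genes 1 was higher (Kcnh8, carried largely by 1 nucleus as given above) and 1 lower (Kcnip3). Over all tested genes 0.185% were higher and 1.59% lower, and the median change of the 36 was 0.0371. A further 4 passed the adjusted p as higher and 5 as lower, among them Kcnip1 (241 ± 11.4 against 173 ± 5.73 CPM, 0.52, edgeR adjusted p = 0.000345) and Dpp10, a Kv4 partner (1407 ± 336 against 2492 ± 340 CPM, -0.80, adjusted p = 0.000158). None of 12 voltage-gated sodium channel genes was called (2 higher and 1 lower unadjusted), and Fgf13, a channel-binding factor on that list, stood at 76.9 ± 5.19 against 148 ± 19.0 CPM (-0.91, adjusted p = 3.14e-05). None of 20 calcium and HCN channel genes was called (3 higher and 7 lower unadjusted, where 2045 of all 14618 tested genes passed unadjusted). Pex5l, a partner of HCN channels, was at 216 ± 38.8 against 393 ± 76.4 CPM (-0.83, adjusted p = 1.45e-06), and the calcium channel subunit Cacna2d3 at 199 ± 37.3 against 352 ± 55.8 CPM (-0.80, adjusted p = 3.57e-06). Of 14 genes of large, fast projection neurons none was called (3 higher and 0 lower unadjusted), with Esrrg at 562 ± 59.3 against 476 ± 8.89 CPM (0.27, adjusted p = 0.0338).

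Axon guidance receptors gave 1 higher and 2 lower genes among 30 (0.185% and 1.59% over all tested genes). Unc5d (chromosome 8, 28646717 to 29219636), a netrin receptor, was at 812, 679 and 828 CPM in the members and at 469, 310 and 412 CPM in the comparison nuclei. All member values lay above all comparison values (1.01, SE 0.07, edgeR adjusted p = 8.56e-08). The change was 0.94 without replicate 2 and 0.99 without replicate 3, so the call sat at the fold limit, and it was 0.33 against nuclei of the same clusters (adjusted p = 0.193). The other netrin receptors Dcc and Unc5c and the Slit receptor Robo2 passed the adjusted p with changes of 0.27, 0.32 and 0.25. Epha3 was at 33.8, 8.41 and 30.2 CPM against 61.1, 75.3 and 72.2 CPM (-1.57, SE 0.24, adjusted p = 0.000334), and Dscaml1, an adhesion molecule of the Dscam family, at 11.3, 29.0 and 13.7 CPM against 105, 98.3 and 51.4 CPM (-2.11, SE 0.19, adjusted p = 1.19e-06). Against nuclei of the same clusters Epha3 was at -0.71 (adjusted p = 0.753) and Dscaml1 at 0.0401 (adjusted p = 0.996). Epha6 (0.53) and Epha5 (-0.53) passed the adjusted p in opposite directions. Among 14 classical cadherins, which sort neurons by adhesion, none was called, with 5 higher and 2 lower unadjusted, and the largest of them was Cdh22 (-0.79, adjusted p = 0.0127). Of 16 neurexophilin and synaptic organiser genes other than Nxph1 none was called (5 higher and 0 lower unadjusted). Among these Clstn2, Lrrtm3 and the neurexin gene Nrxn3 passed the adjusted p with changes of 0.42, 0.38 and 0.33.

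Few growth-related receptors were called, all of them lower, as were 232 of the 259 calls over all genes. Of 18 growth factor receptors 0 were higher and 3 lower, where 0.185% of all tested genes were higher and 1.59% lower. Erbb4, a receptor for neuregulins, was at 94.4, 110 and 57.7 CPM in the members and at 317, 401 and 389 CPM in the comparison nuclei. The highest member value was far under the lowest comparison value (-2.08, SE 0.13, edgeR adjusted p = 1.36e-08), and 47 of 234 members had a UMI. Erbb4 also stayed called, at a smaller size, against nuclei of the same clusters (-1.18, adjusted p = 0.0255) and after thinning (-1.12). Gfra1, a GDNF co-receptor, changed by -1.01 (adjusted p = 0.0215), and by -0.83 without replicate 1 and -0.73 without replicate 2. Bmpr1b had 3 UMIs in the members, and its comparison level was 6.81 times theirs (counting interval 2.30 to 33.2), and it was no longer called without replicate 2 (-2.20, adjusted p = 0.0887). Of 7 tested receptors of growth inhibitors in myelin and proteoglycans 2 were lower. Ptprd, a receptor phosphatase, was at 2171, 1831 and 1698 CPM against 4318, 3929 and 3895 CPM (-1.07, SE 0.06, adjusted p = 9.19e-09) and was seen in 230 of 234 members, with a change of -0.81 after thinning, and Rtn4rl1, a Nogo receptor homologue, was at 1.71 ± 0.980 against 9.72 ± 3.15 CPM (-2.41, adjusted p = 0.00558). Of 16 regeneration-associated genes none was called, with 0 higher and 1 lower unadjusted.

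The comparison within clusters was read gene by gene for the 117 called genes that it could test. Of these, 98 kept their sign, 0 of 25 higher and 3 of 92 lower genes were still called, and the median change went from 1.15 to 0.68 for the higher genes and from -1.33 to -0.46 for the lower. The 3 were Erbb4, Myo1h (-2.02, edgeR adjusted p = 0.0340) and Gm37267 (-2.99, adjusted p = 0.0255), and the 2 higher genes of that comparison were Ubash3a (1.29, adjusted p = 0.00806) and Gm9573 (2.31, adjusted p = 0.0424), named after their values were seen. Gm9573 came from 5 members, and 21 of its 47 UMIs from 1 of them. Fewer nuclei and genes entered that comparison than the other. Zfhx4 stood at 0.54 (edgeR adjusted p = 0.0732) and Ptprd at -0.40 (adjusted p = 0.0687) there. The clusters were themselves made from these genes, so the values describe how far members differed from their nearest neighbours in the map.

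**Figure D5:**
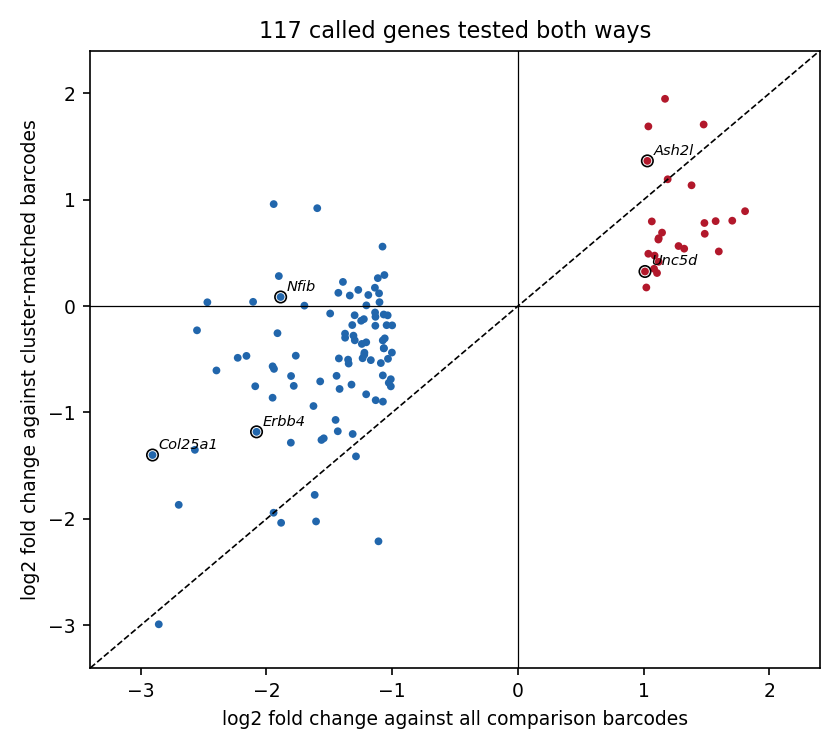
Log2 fold change of the 117 called genes against all comparison nuclei (horizontal axis) and against comparison nuclei of the same library and cluster (vertical axis), with higher genes in red, lower genes in blue, equality as a dashed line and 5 genes ringed and named. Most points lie nearer to 0 on the vertical axis, as Unc5d does with 1.01 and 0.33, while Ash2l, carried largely by 1 nucleus, goes from 1.03 to 1.36.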

How the data were processed

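Nuclear RNA of 3 libraries was analysed from UMI counts per gene and barcode that the authors deposited. They were made with Cell Ranger, version 6.1.1 per the file headers and 7.0.1 per the submitters' processing notes, on build mm10. The use of introns and strand and the choice of barcodes was not given in the sources used here. If introns were counted, long genes are measured at higher levels than over exons alone.

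The members and gene lists were chosen with earlier results of these data known. Members and comparison nuclei were found by the stated limits. Their UMIs were summed per library and set and tested in edgeR 4.0.16 under R 4.3.3 (quasi-likelihood, TMM, filterByExpr) with the library as a block and Benjamini-Hochberg adjustment over 14618 genes, with 2 residual degrees of freedom. The 10 rule genes and 2 label genes were left out of the test. Both sums of a pair come from the same library, and deviations of paired sums from their set means correlated at 0.267, 0.256 and 0.249. A gene with 1 to 3 member UMIs is given as a ratio with its exact interval. Intervals and floors cover counting error only.

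Doublets were called per library with Scrublet at an expected 6% (Scanpy 1.11.5) and kept, with removal as an alternative. The map used 2000 variable genes, 30 principal components, 20 neighbours and Leiden resolution 1 (leidenalg 0.10.2). Genes named are the 12 largest changes in each direction among called genes with at least 20 CPM in the higher set, 1 direction in 3 libraries and a given symbol, and up to 4 called genes of each list. Genes that passed the adjusted p alone, receptor subunits beside the rule genes and cluster genes were added after their values were seen. Some genes that met this rule are not reported here. Positions come from GENCODE M21. The fit was tested on simulated counts. Alternatives were library totals, DESeq2 1.42.0, no filter, no block, each library left out, doublets removed, thinning to 5000 UMIs, limits raised 1.5 times, a comparison set with Slc17a6 UMIs, at least 2000 genes, and 3 chosen after the data were seen (the members' exclusions applied to both sets, nuclei with at least 5 inhibitory UMIs left out, and comparison nuclei matched by cluster).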

Additional observations from a re-analysis of the deposited data

How the results depend on the processing

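Against 27 higher and 232 lower genes, DESeq2 called 14 and 78, and comparison nuclei matched by library and cluster gave 2 and 3 (40% of calls higher, against 10.4%). The fit without the replicate block called 7 and 38, and all of these were among the calls with the block. Leaving out 1 library gave 21 to 52 higher and 207 to 261 lower genes, with 52 higher without replicate 1 (20.1% of calls) and 47 without replicate 3. Limits raised 1.5 times left 104 lower genes and a member share of 0.804% (share with a library left out 2.18 to 2.94%), and a comparison set with Slc17a6 UMIs gave 75 lower genes. Without the filter on low counts 348 were lower. Library totals, removal of doublets, at least 2000 genes, thinning, shared exclusions and removal of inhibitory nuclei stayed within 1.5 times both counts, but not always with the same genes: after thinning 6 of 25 higher and 104 of 182 lower genes were still called. Of the 43 named genes, thinning kept 24 calls, and the calls of Zfhx4, Lhx3, Lhfp, Ptprz1, Unc5d, Hoxa3, Abca1, Col25a1, Epha3 and Ptprd were among those lost. The comparison set with Slc17a6 UMIs kept 28 of 41. At Leiden resolution 2 the fullest cluster held 30.3% of members. Of 43 named genes, the sign turned for Cpa6 (-0.97) and Ash2l (-0.22) with raised limits, for Egflam (-0.23) after thinning, and for Nfib (0.0855) and Dscaml1 (0.0401) with matched clusters. DESeq2 kept 26 of the 43 calls and lost those of Cpa6, Egflam, Irgm1, Ash2l, Creb5, Slc44a4, Nfix, Hoxa3, Slc17a7, Crh, Npsr1, Npr3, Kcnh8, Epha3, Rtn4rl1, Bmpr1b and Gfra1. Without the block 18 were kept, and the calls of Shox2, Ctcflos, Ankfn1 and Unc5d were among those lost. Library totals lost Ash2l and Unc5d. The matched comparison kept 1 call (Erbb4) of the 25 it could test. The replicate 1 nuclei were the shallowest, and 1 Glra1 UMI there could decide membership.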
